A study of Mus musculus with 18 samples.

Results

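Gene expression was compared between 3 libraries from p53 mutant mouse tongue (p53) and 3 libraries from wild type mouse esophagus (WT), 6 of the 18 libraries sequenced. The libraries were chosen by their labelled columns and by no measured value. Per the labels, the p53 libraries are heterozygous for LSL-p53+/R172H, a mutation that the sample titles call gain of function, and the WT libraries carry no named allele. LSL stands for a stop element between loxP sites, which keeps an allele silent until the Cre recombinase removes it. The genotype label of the p53 group names no Cre, whereas that of the E20/p53 group described below names K14-Cre, which is driven by the promoter of the basal keratinocyte gene Krt14. Both groups are labelled squamous epithelium. Tissue and allele change together here and cannot be told apart, so no difference below can be assigned to either of them. Age, strain and sex are not labelled, nor is exposure to 4NQO, the oral carcinogen in the series title. Whether each library of a group had its own animal is not stated either, so every p-value rests on a spread between libraries that may be technical. The other 12 libraries are tongue with the allele LSL-PIK3CAH1047R alone (E20, 6 libraries) or with LSL-p53+/R172H and K14-Cre (E20/p53, 6 libraries).

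Messenger RNA was sequenced, and 14949333, 15659913 and 16601544 reads were counted in the p53 libraries, against 14710482, 16420136 and 15343864 in the WT libraries. Levels are CPM, the reads of a gene scaled to a common library total. They are not corrected for gene length, so they are compared between groups and not between genes. Across genes, Pearson's r of the log2 levels was 0.9965 to 0.9978 between p53 libraries, 0.9982 to 0.9984 between WT libraries and 0.899 to 0.9015 between the groups. p53 replicate 3 stood apart in structural RNAs. Rn45s, the ribosomal RNA precursor, held 1858, 959.9 and 34841 CPM in p53 libraries 1 to 3, against 1354, 1616 and 1736 CPM in WT libraries. Rn7sk, a small nuclear RNA that holds back transcript elongation, held 1.87, 1.56 and 109 CPM in p53 libraries, against 0.745, 1.84 and 0.902 CPM in WT libraries. Neither was called from all libraries. Rn7sk passed as higher without p53 replicate 1 (log2 3.55, adjusted p = 0.021) or 2 (log2 3.68, adjusted p = 0.015), and Rn45s reached an adjusted p of 0.05 without p53 replicate 2 (log2 2.37).

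The protein p53 is a transcription factor that damaged DNA stabilises, and it switches on genes for cell cycle arrest, repair and apoptosis. R172H changes its DNA-binding domain, and mutant p53 of this kind is known to accumulate as protein in tumours. Stratified squamous epithelium of tongue and esophagus is built by basal keratinocytes, which make the keratins Krt5 and Krt14 and lie on a basement membrane. The tongue beneath its epithelium is mostly skeletal muscle. Its connective tissue descends from the neural crest of the head, whereas the esophagus is a foregut tube.

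Of 15235 genes tested, 4459 (29.3%) were higher and 3800 (24.9%) lower in p53 than in WT by limma at an adjusted p under 0.05, together 54.2%. At a change of at least 2-fold, 2361 (15.5%) were higher and 2078 (13.6%) lower. All 3 p53 libraries lay above all 3 WT libraries for 6523 genes (42.8%) and below them for 5944 (39%), together 81.8%. The median log2 change of all genes was 0.04, and with plain sums of reads as library totals it was -0.10, which gave 3821 genes higher and 4478 lower. Without p53 replicate 3, 3956 genes were higher and 3279 lower. The spread in this fit comes from all 18 libraries, and in E20 and in E20/p53 the libraries 1 to 3 differed from the libraries 4 to 6. A gene that varies there can miss the threshold with a large and repeatable change here. From the 6 libraries alone, 6422 genes were higher and 5880 lower. With p53 and WT as 1 mean each and the other libraries as 4 block means, 1 gene was called, and 1627 genes had an unadjusted p under 0.05. Where a group had 0 reads, the fitted log2 change depends on the 1 read added before the logarithm, and the fold is given as at least the value at 3 reads over the group. Where it had 1 to 3 reads, the ratio of the groups is given with its exact 95% interval, which covers counting error only. Each count of list members below is to be read against 29.3% and 24.9%, and each list median against 0.04.

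The labelled cell type was checked first. The keratin Krt5 was near 0 in both groups, several genes of basal and simple epithelium were lower in p53, and many fibroblast and skeletal muscle genes were higher in p53. Krt5 had 0.201, 0 and 0 CPM in p53 libraries, against 0, 0.115 and 0.12 CPM in WT libraries, and these ranges overlap. Its partner Krt14 had 0.67, 0.847 and 0.567 CPM in p53 libraries, against 14, 12.5 and 13.6 CPM in WT libraries, without overlap, but did not pass (log2 -4.16, SE 3.61, adjusted p = 0.34). Of 10 basal keratinocyte genes 0 were higher and 5 lower, with a median log2 change of -3.02, and the list summed to 326 to 428 CPM in p53 libraries and 876 to 968 CPM in WT libraries. Without WT replicate 2 the lower ones were 2, and without p53 replicate 3 they were 3. The keratin Krt15 (0, 0 and 0 CPM in p53 libraries and 5.77, 6.96 and 4.99 CPM in WT libraries) was lower in p53 (log2 -6.51, SE 1.53, adjusted p = 0.0021, at least 91.1-fold lower). The integrin subunit Itgb4, which anchors basal cells, averaged 1.02 ± 0.121 CPM in p53 libraries, against 20 ± 0.962 CPM in WT libraries (SD, n = 3 each), a fall (log2 -4.21, SE 1.29, adjusted p = 0.012). The differentiation genes of squamous layers reached 22.6 to 23.8 CPM in sum in p53 libraries and 39.4 to 45.7 CPM in WT libraries, and 0 of 12 tested were higher and 3 lower. Epcam, a surface marker of epithelia, stayed at or under 0.241 CPM in all 6 libraries. WT libraries did hold Krt8 and Krt18, keratins of simple epithelia. Of 6 such keratins listed, 4 were tested, and 0 were higher and 2 lower. Krt8 had 0.067, 0 and 0 CPM in p53 libraries, against 42, 40.6 and 41.9 CPM in WT libraries, and Krt18 had 0, 0.0652 and 0 CPM in p53 libraries, against 237, 224 and 222 CPM in WT libraries. Both fell in p53 (log2 -8.99, SE 0.56, adjusted p = 2.4e-09, ratio of WT over p53 1914 with interval 343 to 75633 for Krt8, and log2 -11.44, SE 1.82, adjusted p = 7.6e-05, ratio of WT over p53 10494 with interval 1883 to 414529.5 for Krt18). Elf3, an epithelial transcription factor, fell as well (0.134, 0.195 and 0 CPM in p53 libraries, 11.4, 12 and 12.2 CPM in WT libraries, log2 -6.33, SE 0.68, adjusted p = 1.3e-06).

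**Figure D1:**
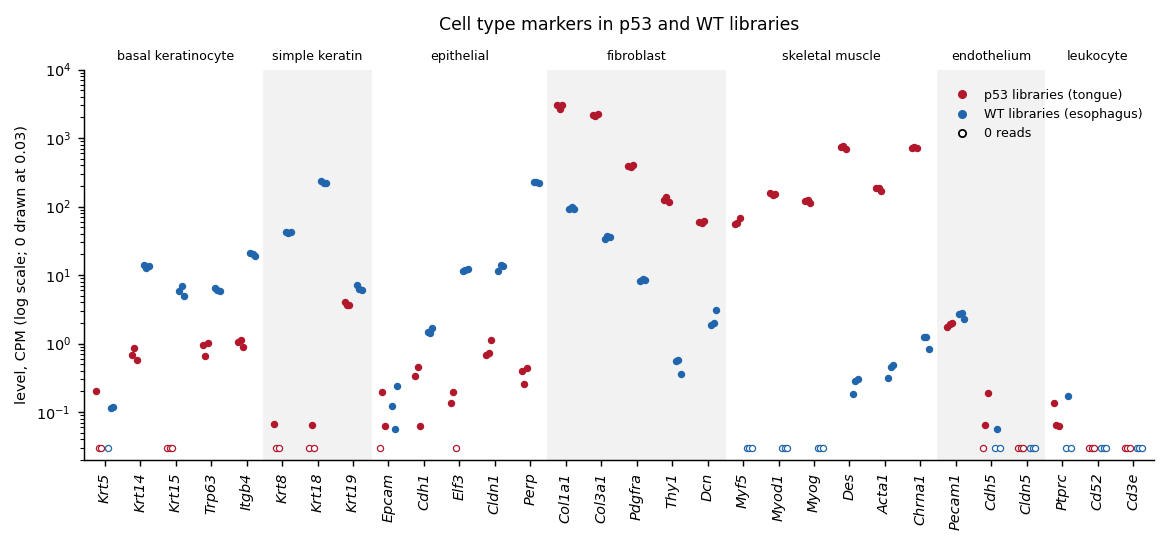
Levels of cell type markers in the 3 p53 and 3 WT libraries, in CPM on a log axis, with open symbols for 0 reads. Fibroblast and muscle genes lie higher in p53, Krt8, Krt18 and Perp lie higher in WT, and Krt5, Epcam, Cldn5, Cd52 and Cd3e lie at or near 0 in both groups.

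Markers of connective tissue were high in p53. Of 12 fibroblast genes tested, 8 were higher and 0 lower, with a median log2 change of 4.95. WT libraries held such transcripts too: the 15 listed genes summed to 10808 to 11336 CPM in p53 libraries and 2715 to 2826 CPM in WT libraries. The 10 smooth muscle and myofibroblast genes summed to 3306 to 3707 CPM in p53 libraries and 1014 to 1084 CPM in WT libraries. Pdgfra, a growth factor receptor of mesenchymal cells, had 395, 384 and 402 CPM in p53 libraries, against 8.07, 8.62 and 8.42 CPM in WT libraries (log2 5.55, SE 0.42, adjusted p = 2.5e-08). Fibroblasts carry Thy1 on their surface, and it had 123, 137 and 116 CPM in p53 libraries, against 0.559, 0.575 and 0.361 CPM in WT libraries (log2 7.83, SE 0.55, adjusted p = 1e-08). Col1a1, a chain of type I collagen, had 3027, 2646 and 3065 CPM in p53 libraries, against 93.3, 97.9 and 92.1 CPM in WT libraries, and missed the threshold (log2 4.94, SE 2.10, adjusted p = 0.057). Endothelial and blood cell markers were low in both groups. Pecam1 of endothelium had 1.74, 1.95 and 2.02 CPM in p53 libraries, against 2.67, 2.82 and 2.29 CPM in WT libraries, Ptprc of leukocytes stayed at or under 0.172 CPM, and Cd3e, Cd52 and Adgre1 had 0 reads in the 6 libraries. The 10 endothelium genes summed to at most 8.76 CPM in p53 libraries and 7.26 CPM in WT libraries, and the 12 leukocyte genes to at most 8.32 CPM in p53 libraries and 18.9 CPM in WT libraries. In bulk RNA, fewer cells of a type and less RNA of that type per cell cannot be told apart. The part of these markers in the results below was not tested.

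Trp53, which encodes p53, was higher in p53 libraries. It lies on chromosome 11 at 69580359 to 69591873 in mm10. It had 87.7, 82.6 and 74.8 CPM in p53 libraries, against 24.9, 26.7 and 25.9 CPM in WT libraries (log2 1.66, SE 0.21, adjusted p = 8.6e-06). The groups do not overlap, and reads of the mutant and the normal allele are summed. Pik3ca, the catalytic subunit that the other tongue groups carry mutated, had 96.6, 96.5 and 102 CPM in p53 libraries, against 122, 128 and 128 CPM in WT libraries, a small fall (log2 -0.35, SE 0.10, adjusted p = 0.007). Of 15 tested regulators and relatives of p53, 5 were higher and 2 lower, with a median log2 change of 0.09. The lower ones were 1 without WT replicate 2 or 3 or p53 replicate 1 or 2. Mdm2, the ligase that degrades p53, had 105, 116 and 100.5 CPM in p53 libraries, against 75.1, 74.1 and 75.2 CPM in WT libraries, without overlap and short of the threshold (log2 0.52, SE 0.24, adjusted p = 0.082). Chek1, a kinase of the replication checkpoint, had 30.2, 33.4 and 32 CPM in p53 libraries, against 11.4, 13.4 and 12.3 CPM in WT libraries (log2 1.36, SE 0.13, adjusted p = 4e-07). Of the negative regulators, Cop1, another ligase for p53 (log2 0.54, SE 0.09, adjusted p = 0.00011), and the phosphatase Ppm1d (log2 0.58, SE 0.14, adjusted p = 0.0028) were higher. Usp7, which removes ubiquitin from Mdm2 and p53, rose slightly (log2 0.32, SE 0.08, adjusted p = 0.0032). Trp53inp1, a stress protein that promotes p53 activity, fell to 13.1, 16 and 15.6 CPM in p53 libraries, against 108, 117 and 102 CPM in WT libraries (log2 -2.87, SE 0.36, adjusted p = 6.3e-06). The family member Trp63, the master factor of basal keratinocytes, had 0.937, 0.652 and 1.01 CPM in p53 libraries, against 6.39, 6.09 and 5.77 CPM in WT libraries (log2 -2.74, SE 1.24, adjusted p = 0.071), and Trp73 had 0 reads in the 6 libraries. Mdm4, which blocks p53 activity, was lower (log2 -1.0, SE 0.35, adjusted p = 0.024), and this call was lost in 4 of the 6 fits that leave out 1 library. The kinases Atm, Atr and Chek2, the ligase Rchy1 and the binding protein Trp53bp1 did not pass and had log2 changes between -0.21 and 0.19. Cdkn2a, which encodes the Mdm2 inhibitor p19Arf and the inhibitor p16, had 243, 233 and 233 CPM in p53 libraries, against 292, 264 and 308 CPM in WT libraries (log2 -0.28, SE 0.39, adjusted p = 0.56).

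The 35 genes listed as targets of p53 did not move one way. In p53, 11 were higher and 10 lower, with a median log2 change of 0.05. Together 60% were called, beside 54.2% of all genes, whose median was 0.04, so this split was near that of all genes. With plain sums of reads as totals the counts were 10 higher and 12 lower. Cdkn1a, which encodes the cell cycle inhibitor p21, had 223, 232 and 223 CPM in p53 libraries, against 5.4, 4.77 and 5.05 CPM in WT libraries (log2 5.46, SE 0.89, adjusted p = 9.8e-05). The apoptosis gene Bax had 150.1, 164 and 143 CPM in p53 libraries, against 81.2, 74.5 and 75.8 CPM in WT libraries (log2 0.98, SE 0.22, adjusted p = 0.0017). Also higher were Ccng1, a cyclin (log2 1.22, SE 0.29, adjusted p = 0.0022), the exonuclease gene Aen (log2 1.41, SE 0.32, adjusted p = 0.0016), the RNA-binding factor Zmat3 (log2 0.95, SE 0.22, adjusted p = 0.0019), the Akt inhibitor Phlda3 (log2 0.88, SE 0.21, adjusted p = 0.0026) and the death receptor Eda2r (log2 2.15, SE 0.67, adjusted p = 0.013). The costimulatory ligand Cd80 (log2 2.61, SE 0.56, adjusted p = 0.00099), the ribosomal protein gene Rps27l (log2 1.16, SE 0.20, adjusted p = 0.00014) and the apoptosis gene Ei24 (log2 0.58, SE 0.21, adjusted p = 0.027) were higher too. The call of Ei24 was lost in 4 of the 6 fits that leave out 1 library.

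Among the lower targets, Perp changed most. Perp is a component of desmosomes in squamous epithelium. It had 0.402, 0.261 and 0.441 CPM in p53 libraries, against 232, 227 and 218 CPM in WT libraries (log2 -9.05, SE 2.5, adjusted p = 0.0062). The DNA damage sensors of nucleotide excision repair were lower in p53: Ddb2 had 3.88, 4.5 and 4.1 CPM in p53 libraries, against 17.5, 18.3 and 18.2 CPM in WT libraries (log2 -2.10, SE 0.42, adjusted p = 0.00058), and Xpc had 17.2, 17.4 and 15.7 CPM in p53 libraries, against 44.8, 45 and 43.5 CPM in WT libraries (log2 -1.40, SE 0.25, adjusted p = 0.00022). Lower too were Gadd45a, a growth arrest gene (log2 -1.27, SE 0.13, adjusted p = 1.1e-06), Sesn1, which restrains mTOR (log2 -1.5, SE 0.29, adjusted p = 0.00047), the apoptosis gene Bbc3 (log2 -1.06, SE 0.21, adjusted p = 0.00048), Plk3 (log2 -0.81, SE 0.17, adjusted p = 0.00078) and Pml, the organiser of nuclear bodies (log2 -0.65, SE 0.19, adjusted p = 0.0076). Rrm2b, a subunit of the enzyme that makes deoxynucleotides, was lower by a small margin (log2 -0.29, SE 0.11, adjusted p = 0.029), and its call was lost in 4 of the 6 fits that leave out 1 library. The p53 targets Fas, a death receptor, and Btg2, an antiproliferative gene, did not pass (log2 0.60, SE 0.43, adjusted p = 0.25 for Fas, log2 -0.33, SE 0.36, adjusted p = 0.46 for Btg2), nor did the apoptosis genes Pmaip1, Apaf1 and Tnfrsf10b, with log2 changes of -1.07, -0.23 and 0.05. The others that did not pass were Mdm2 above and Ephx1, Sesn2, Plk2, Polk, Tigar, Sulf2, Plxnb2 and Ddit4l. Of 9 desmosome genes tested, 2 were lower, Perp and Jup, and 1 was higher, Dsc2 (5.49, 5.21 and 4.79 CPM in p53 libraries and 0.497, 0.69 and 0.601 CPM in WT libraries, log2 3.00, SE 1.23, adjusted p = 0.049), a call lost without any 1 of the 6 libraries. Jup is their plakoglobin (30, 27.2 and 26.1 CPM in p53 libraries and 204, 199 and 204 CPM in WT libraries, log2 -2.86, SE 0.74, adjusted p = 0.0038), and Dsp, which did not pass, had 3.21, 2.61 and 2.33 CPM in p53 libraries and 90.8, 97.5 and 96.4 CPM in WT libraries.

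**Figure D2:**
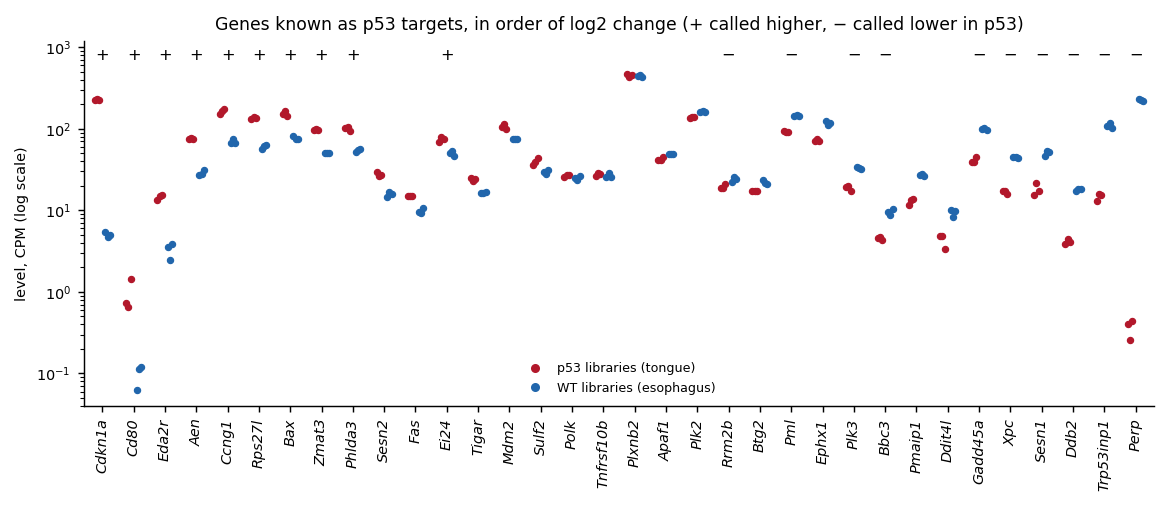
Levels of p53 target genes in the 3 p53 and 3 WT libraries, in CPM on a log axis, ordered by log2 change, with + for a gene called higher and − for a gene called lower in p53. Cdkn1a stands at one end with 223 to 232 CPM in p53 libraries, and Perp at the other with 0.261 to 0.441 CPM in p53 libraries.

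Cell division genes were higher in p53 libraries. All 24 mitosis genes tested were called higher, with a median log2 change of 1.5, and all 26 DNA replication genes were, with a median of 1.38. When each library was left out in turn, 23 or 24 of the mitosis genes and 25 or 26 of the replication genes were called. Top2a, the topoisomerase that untangles chromosomes, had 667, 687 and 720.3 CPM in p53 libraries, against 177, 181 and 169 CPM in WT libraries (log2 1.98, SE 0.16, adjusted p = 6.9e-08). Mki67, the gene of the proliferation antigen Ki-67, had 359.6, 369.8 and 389 CPM in p53 libraries, against 152, 166 and 155 CPM in WT libraries (log2 1.24, SE 0.28, adjusted p = 0.0016). The spindle motor Kif11 (log2 1.95, SE 0.06, adjusted p = 1.1e-12), the mitotic kinase Plk1 (log2 1.96, SE 0.08, adjusted p = 2.3e-11) and the survivin gene Birc5 (log2 2.20, SE 0.09, adjusted p = 2e-11) rose as well. In replication, the helicase subunit Mcm5 had 161, 162 and 153 CPM in p53 libraries, against 36.9, 32.8 and 33.4 CPM in WT libraries (log2 2.21, SE 0.08, adjusted p = 3.6e-12). Rrm2, which makes deoxynucleotides, had 329, 364 and 346 CPM in p53 libraries, against 48.5, 55 and 49.6 CPM in WT libraries (log2 2.76, SE 0.33, adjusted p = 3.9e-06). Of 18 DNA repair genes, 9 were higher and 2 lower, and with plain sums of reads 5 were higher.

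Regulators of the first gap phase moved in both directions. Of 17 inhibitors and cyclins tested, 9 were higher and 3 lower, with a median log2 change of 0.61. The cyclin Ccne1 had 119, 127 and 119 CPM in p53 libraries, against 16.5, 14.6 and 13.9 CPM in WT libraries (log2 3.02, SE 0.53, adjusted p = 0.00018), and its partner kinase Cdk2 rose (log2 1.26, SE 0.13, adjusted p = 8.2e-07). The cyclin Ccnd3 had 333, 341 and 319.6 CPM in p53 libraries, against 70.8, 70.7 and 66.5 CPM in WT libraries (log2 2.26, SE 0.47, adjusted p = 0.00075). Besides Cdkn1a, the inhibitor gene Cdkn2c rose (36.8, 39 and 37.7 CPM in p53 libraries, 7.33, 8.68 and 6.92 CPM in WT libraries, log2 2.30, SE 0.09, adjusted p = 9.3e-12). Cdkn1b, which encodes p27, had 56.2, 56.4 and 63.7 CPM in p53 libraries, against 142, 146 and 147 CPM in WT libraries (log2 -1.30, SE 0.43, adjusted p = 0.018), and Cdkn2b also fell (log2 -1.33, SE 0.36, adjusted p = 0.0058). The activator E2f1, which drives entry into replication, rose by a log2 of 0.61. Rb1, which restrains it, did not pass (log2 -0.24, SE 0.29, adjusted p = 0.52). Ccne2, another cyclin of replication entry, was higher as well (log2 2.21, SE 0.23, adjusted p = 1.1e-06).

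Skeletal muscle genes were higher in p53 libraries, and many had few or no reads in WT libraries. The 30 contractile and excitation genes tested were all called higher, with a median log2 change of 6.12 and a lowest of 1.5, and 28 or 29 were called when 1 library was left out. Their levels summed to 2032 to 2093 CPM in p53 libraries, against 27.9 to 29.9 CPM in WT libraries. Of 12 muscle fate genes tested, 9 were higher and 0 lower. Myod1, the factor that commits cells to muscle, had 157, 149 and 153 CPM in p53 libraries and 0 reads in the WT libraries (log2 11.32, SE 1.85, adjusted p = 9.8e-05, at least 2560.2-fold higher). Myog, which starts muscle differentiation, had 119.9, 126 and 113 CPM in p53 libraries and 0 reads in WT libraries (log2 10.96, SE 1.92, adjusted p = 0.00018, at least 1995-fold higher). Myf5 and Pax7 mark myoblasts and satellite cells. Myf5 had 55.4, 56.9 and 68.2 CPM in p53 libraries and 0 reads in WT libraries (log2 9.97, SE 2.59, adjusted p = 0.0042, at least 1008-fold higher), and Pax7 had 47.6, 38.8 and 44.4 CPM in p53 libraries, against 0.0621, 0 and 0 CPM in WT libraries (log2 9.17, SE 1.08, adjusted p = 3.4e-06, ratio of p53 over WT 2185 with interval 392 to 86365). Mymk, a fusion protein of myoblasts, had 73.7, 73.2 and 68.4 CPM in p53 libraries and 0 reads in WT libraries (log2 10.23, SE 1.59, adjusted p = 5.9e-05, at least 1198-fold higher). Eya1, a cofactor that acts upstream in muscle, rose (log2 1.30, SE 0.40, adjusted p = 0.012). Pax3 and Mef2c went the other way in level without passing: Pax3 had 22.8, 25.2 and 24.6 CPM in p53 libraries and 42.2, 41.9 and 43.8 CPM in WT libraries, and Mef2c had 6.7, 6.71 and 7.5 CPM in p53 libraries and 12.9, 14.3 and 13.6 CPM in WT libraries.

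Among the contractile and excitation genes were subunits of the receptor at the nerve-muscle synapse. Chrna1, the alpha subunit of the muscle acetylcholine receptor, had 706, 745 and 712 CPM in p53 libraries, against 1.24, 1.26 and 0.842 CPM in WT libraries (log2 9.28, SE 3.05, adjusted p = 0.017). The delta subunit Chrnd and the gamma subunit Chrng, which belongs to the fetal receptor, had 58.5, 60.7 and 60 CPM of Chrnd and 50, 51.8 and 50 CPM of Chrng in p53 libraries and 0 reads in WT libraries, at least 998-fold and 845-fold higher. Musk, the kinase that clusters these receptors, averaged 21 ± 0.534 CPM (SD, n = 3) in p53 libraries, against 0, 0.172 and 0 CPM in WT libraries (log2 7.79, SE 2.02, adjusted p = 0.0041, ratio of p53 over WT 350.5 with interval 119.6 to 1703). The embryonic myosin Myh3 had 36.7, 35.9 and 35.7 CPM in p53 libraries, against 0.124, 0.23 and 0.18 CPM in WT libraries (log2 7.27, SE 1.52, adjusted p = 0.00082). The creatine kinase gene Ckm had 1.27, 2.15 and 1.2 CPM in p53 libraries, against 0.0621, 0 and 0.0601 CPM in WT libraries (log2 4.03, SE 0.56, adjusted p = 2e-05, ratio of p53 over WT 38.6 with interval 10.3 to 325). Des, the desmin of muscle, counted with the smooth muscle genes, had 752, 778 and 699 CPM in p53 libraries, against 0.186, 0.287 and 0.301 CPM in WT libraries (log2 11.21, SE 2.90, adjusted p = 0.0041). Ttn, the giant spring protein, had 102, 83.9 and 218 CPM in p53 libraries, against 5.03, 4.48 and 5.17 CPM in WT libraries (log2 4.64, SE 1.08, adjusted p = 0.0018). p53 replicate 3 was the highest of the 3 for this gene, and the groups do not overlap.

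Muscle factors of the Myod1 family bind E-boxes, and the form CAGCTG, which reads the same on both strands, was searched in the 250 bases before each start in the RefSeq promoters of the build GRCm38.p6. It stood in 11 of the 25 contractile genes with a promoter in the table (44%), in 0 of 5 muscle fate genes, in 14.6% of 11482 tested genes with a promoter and in 13% of all 32851 promoters. A match is a description of the sequence and shows no binding. The 160 bases before the start are shown for the synapse genes Chrna1 and Musk, with CAGCTG in capitals, on the strand of the gene. Chrna1 lies on the minus strand at chr2:73580339-73580498, with matches that begin 92 and 44 bases before the start, and Musk on the plus strand at chr4:58285802-58285961, with 1 match 68 bases before it.
Chrna1: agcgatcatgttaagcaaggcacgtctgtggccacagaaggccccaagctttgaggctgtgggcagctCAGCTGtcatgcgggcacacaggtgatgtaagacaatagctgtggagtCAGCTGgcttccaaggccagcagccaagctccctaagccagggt
Musk: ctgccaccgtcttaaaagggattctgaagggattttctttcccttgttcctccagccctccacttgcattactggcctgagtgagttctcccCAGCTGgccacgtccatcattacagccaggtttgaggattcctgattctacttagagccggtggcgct

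Of 25 Hox genes tested, 0 were higher and 6 lower in p53, a share of 24% beside 24.9% of all genes. The lower ones were Hoxa2, which lost its call in 5 of the 6 fits that leave out 1 library, and 5 genes of the Hoxc cluster on chromosome 15. Hox genes mark the trunk and the hindbrain, and the front of the head lacks them. Hoxc5 had 0 reads in p53 libraries, against 35.8, 37 and 39 CPM in WT libraries (log2 -9.17, SE 0.68, adjusted p = 2e-08, at least 574-fold lower). Hoxc4 had 0.067, 0.13 and 0.315 CPM in p53 libraries, against 67.1, 68.2 and 64.7 CPM in WT libraries (log2 -8.28, SE 0.77, adjusted p = 2.7e-07), and Hoxc8 had 0 reads in p53 libraries, against 15.8, 17.6 and 16.2 CPM in WT libraries (log2 -8.00, SE 0.70, adjusted p = 1.2e-07, at least 255-fold lower). The annotated span of Hoxc5, 102967443 to 103017429, contains those of Hoxc6, Hoxc8 and Hoxc9, so reads in this cluster may be shared between genes. The other 19 tested members did not pass.

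Of 19 oral and jaw patterning genes tested, 10 were higher and 2 lower, with a median log2 change of 1.03. Lhx8 had 13.1, 14.6 and 13 CPM and Lhx6 7.3, 7.3 and 7.18 CPM in p53 libraries, against 0 reads of Lhx8 and 0.31, 0.23 and 0.421 CPM of Lhx6 in WT libraries (log2 7.83, SE 0.70, adjusted p = 1.6e-07, at least 226-fold higher for Lhx8, log2 4.30, SE 0.30, adjusted p = 9.6e-09 for Lhx6). Both are homeobox genes of the jaw mesenchyme. Prrx1, which marks limb and face mesenchyme, had 449, 453 and 473 CPM in p53 libraries, against 45, 48.8 and 47 CPM in WT libraries (log2 3.29, SE 0.18, adjusted p = 5.9e-10). Tfap2a, a factor of neural crest and of surface ectoderm, went the opposite way, with 0.402, 0.261 and 0.378 CPM in p53 libraries, against 64.7, 74 and 66.4 CPM in WT libraries (log2 -7.39, SE 1.00, adjusted p = 1.5e-05). Of 7 T-box genes tested, 5 were higher and 0 lower. They included Tbx15 (52.4 ± 1 CPM, mean and SD over 3, in p53 libraries, 0.497, 0.517 and 0.902 CPM in WT libraries, log2 6.28, SE 0.63, adjusted p = 6e-07) and Tbx1, which patterns the pharyngeal arches (log2 4.38, SE 1.20, adjusted p = 0.0059).

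Foregut genes split. Of 15 tested, 6 were higher and 7 lower in p53. Sox2, which specifies the esophagus within the foregut, had 0.067, 0.0652 and 0.063 CPM in p53 libraries, against 35.4, 37.4 and 38.1 CPM in WT libraries (log2 -8.15, SE 2.72, adjusted p = 0.019, ratio of WT over p53 569 with interval 194 to 2763). Gata4 had 0.134, 0.13 and 0.252 CPM in p53 libraries, against 7.01, 5.92 and 6.37 CPM in WT libraries (log2 -4.81, SE 0.54, adjusted p = 2e-06), and Foxa2, an endoderm factor, had 0, 0 and 0.063 CPM in p53 libraries, against 4.84, 4.77 and 4.09 CPM in WT libraries (log2 -5.82, SE 1.76, adjusted p = 0.011, ratio of WT over p53 211 with interval 37.5 to 8363). Nkx2-5, known from heart and pharyngeal mesoderm, had 29.9, 25.4 and 27.7 CPM in p53 libraries and 0 reads in WT libraries (log2 8.85, SE 1.83, adjusted p = 0.00074, at least 462-fold higher). Outside this list, Pax2, a factor known from kidney and other ducts, had 0 reads in p53 libraries, against 33.1, 37.3 and 35.4 CPM in WT libraries (log2 -9.08, SE 0.38, adjusted p = 2e-11, at least 543-fold lower).

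Imprinted and growth factor genes were high in p53. Of 20 genes of insulin-like growth factors and imprinted growth control, 13 were higher and 3 lower, with a median log2 change of 5.37. H19, an imprinted noncoding RNA beside Igf2, had 10051, 10577 and 9349.7 CPM in p53 libraries, against 5.52, 2.82 and 3.97 CPM in WT libraries (log2 11.28, SE 2.59, adjusted p = 0.0017). Igf2, the fetal growth factor, had 2942, 2919.8 and 2773 CPM in p53 libraries, against 3.48, 3.74 and 3.19 CPM in WT libraries (log2 9.68, SE 2.61, adjusted p = 0.0054). Also expressed from 1 parental copy, Peg3 had 283, 222 and 308 CPM in p53 libraries, against 0.124, 0.46 and 0.12 CPM in WT libraries (log2 10.02, SE 0.93, adjusted p = 2.6e-07), and Grb10, which restrains insulin signals, had 140.3, 145 and 144 CPM in p53 libraries, against 0.0621, 0 and 0 CPM in WT libraries (log2 10.89, SE 0.73, adjusted p = 6e-09, ratio of p53 over WT 7182 with interval 1289 to 283723). The imprinted cell cycle inhibitor Cdkn1c, which encodes p57, rose too (14.3, 13.2 and 12.7 CPM in p53 libraries, 0.0621, 0 and 0.0601 CPM in WT libraries, log2 7.14, SE 0.39, adjusted p = 5.9e-10, ratio of p53 over WT 335 with interval 92.4 to 2773). Binding proteins for these factors moved in both directions. Igfbp5 had 816, 741 and 782 CPM in p53 libraries, against 0.186, 0.172 and 0.18 CPM in WT libraries (log2 11.67, SE 1.26, adjusted p = 1.3e-06). Igfbp4 had 71, 71.8 and 72.1 CPM in p53 libraries, against 1335, 1309 and 1325 CPM in WT libraries (log2 -4.21, SE 1.32, adjusted p = 0.014), and Igfbp3 also fell (log2 -2.36, SE 0.32, adjusted p = 1.5e-05). The receptor Igf1r fell (log2 -0.87, SE 0.07, adjusted p = 7.5e-08).

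Matrix genes rose more often than they fell. Of 26 collagens and other matrix genes, 17 were higher and 3 lower, with a median log2 change of 1.86. The basement membrane linkers Nid1 and Nid2 changed most. Nid1 had 1429, 1372 and 1429 CPM in p53 libraries, against 1.3, 1.67 and 1.86 CPM in WT libraries (log2 9.73, SE 0.93, adjusted p = 3.5e-07), and Nid2 had 455, 423 and 445 CPM in p53 libraries, against 0.124, 0.46 and 0.301 CPM in WT libraries (log2 10.40, SE 0.79, adjusted p = 2.7e-08). The chain Col6a3 had 372, 309 and 376 CPM in p53 libraries, against 1.74, 1.9 and 1.02 CPM in WT libraries (log2 7.81, SE 1.01, adjusted p = 9.9e-06), and Col4a1 of basement membranes rose (log2 1.34, SE 0.11, adjusted p = 6.8e-08). Fn1, which encodes fibronectin, went the other way. It had 3963, 3592 and 4110.2 CPM in p53 libraries, against 19013, 21657 and 19079 CPM in WT libraries (log2 -2.36, SE 0.47, adjusted p = 0.00054). Col7a1, the anchoring fibril collagen that keratinocytes make, fell to 13.5, 9.84 and 10.8 CPM in p53 libraries, against 87.3, 91.5 and 86.5 CPM in WT libraries (log2 -2.97, SE 0.40, adjusted p = 1.6e-05).

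Protease and adhesion genes moved in both directions. Of 18 proteases and inhibitors, 10 were higher and 3 lower, and without any 1 of the 6 libraries 1 was lower. The gelatinase Mmp2 had 244, 251 and 244 CPM in p53 libraries, against 2.67, 2.82 and 3.07 CPM in WT libraries (log2 6.41, SE 0.99, adjusted p = 6e-05). Plau, the urokinase that activates plasmin, had 299, 322 and 301 CPM in p53 libraries, against 19.1, 19 and 19.3 CPM in WT libraries (log2 4.00, SE 0.73, adjusted p = 0.00028), and the inhibitor Timp1 rose (log2 3.62, SE 0.50, adjusted p = 1.7e-05) while Timp3 fell (176, 166 and 166 CPM in p53 libraries, 1509.9, 1609 and 1533 CPM in WT libraries, log2 -3.19, SE 0.58, adjusted p = 0.00026). Of 15 integrins, 5 were higher and 4 lower, together 60% beside 54.2% of all genes. Itga2 and Itga3, subunits of epithelial collagen and laminin receptors, fell (log2 -4.86, SE 0.85, adjusted p = 0.00019 for Itga2, log2 -1.52, SE 0.39, adjusted p = 0.0039 for Itga3), and Itga4 and Itga9 rose (log2 6.05, SE 0.90, adjusted p = 3.9e-05 for Itga4, log2 6.70, SE 1.27, adjusted p = 0.00038 for Itga9). Of 14 cadherins and genes of epithelial to mesenchymal transition, 7 were higher and 2 lower. Without any 1 of the 6 libraries 6 were higher and 1 was lower. Cdh15, the cadherin of muscle, had 355, 343 and 343 CPM in p53 libraries, against 0, 0 and 0.0601 CPM in WT libraries (log2 12.17, SE 1.92, adjusted p = 7e-05, ratio of p53 over WT 17374 with interval 3118 to 686290.1). Cdh11 of mesenchyme and Cdh2 rose as well (log2 7.06, SE 0.69, adjusted p = 4.5e-07 for Cdh11, log2 1.92, SE 0.18, adjusted p = 2.3e-07 for Cdh2). The transition factors did not go one way, since Snai2 rose (log2 1.10, SE 0.18, adjusted p = 8.8e-05) and Twist1 fell (log2 -0.95, SE 0.23, adjusted p = 0.0027). Vim, the mesenchymal filament gene, did not pass (2643, 2910.2 and 2599.8 CPM in p53 libraries, 3473, 3654 and 3442 CPM in WT libraries, log2 -0.38, SE 0.23, adjusted p = 0.19).

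**Figure D3:**
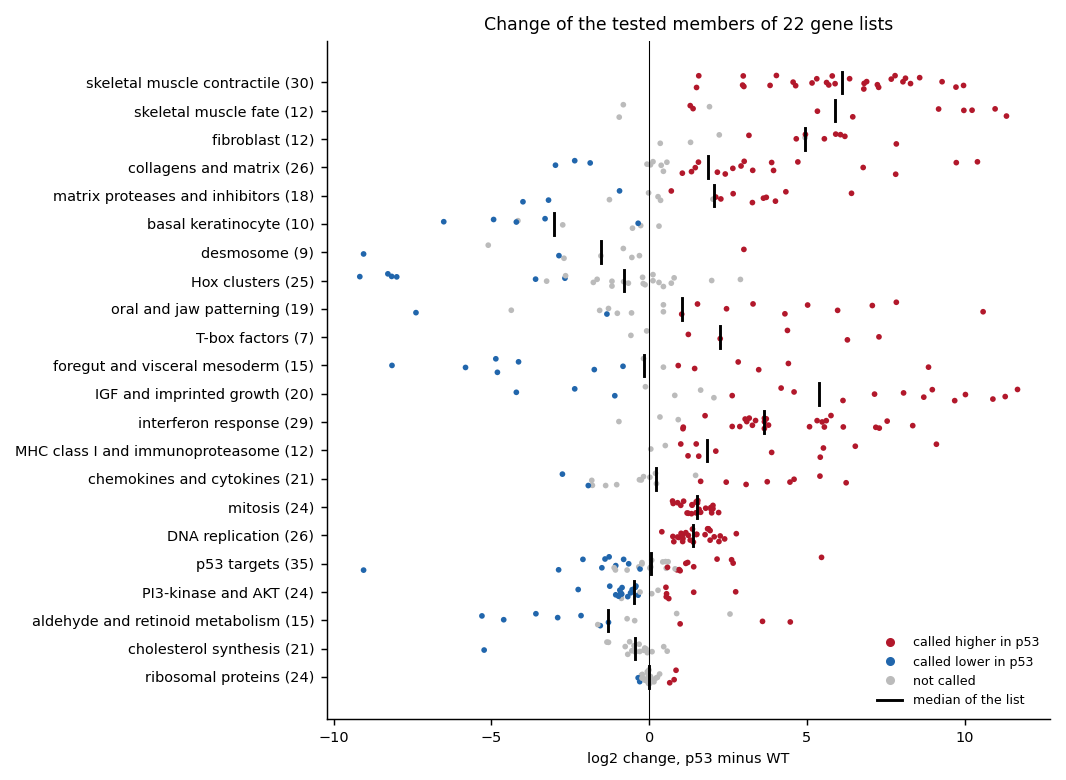
Log2 change, p53 minus WT, of the tested members of 22 gene lists, 1 point per gene, coloured by its call, with a black bar at the list median and the number tested in brackets. Contractile, mitosis and DNA replication genes all lie above 0, interferon genes nearly all do, and p53 targets lie on both sides.

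Genes of the interferon response were higher in p53. Interferons signal through a complex that holds Stat2 and Irf9 and binds the interferon-stimulated response element and switches on antiviral genes. Of 29 such genes tested, 26 were higher and 0 lower, with a median log2 change of 3.65, and the same count of 26 was found with each library left out. Isg15, a ubiquitin-like antiviral protein, had 78.9, 87.6 and 93 CPM in p53 libraries, against 2.05, 1.84 and 1.32 CPM in WT libraries (log2 5.61, SE 0.40, adjusted p = 1.1e-08). Ifit1, which binds foreign RNA caps, had 66.8, 67.4 and 84.8 CPM in p53 libraries, against 1.49, 1.72 and 2.1 CPM in WT libraries (log2 5.32, SE 0.60, adjusted p = 2.1e-06). Rsad2, which encodes viperin, had 22.7, 19.7 and 27.8 CPM in p53 libraries, against 0.124, 0 and 0.12 CPM in WT libraries (log2 7.54, SE 0.88, adjusted p = 3e-06). The sensor Ifih1 (log2 5.55, SE 0.37, adjusted p = 5.8e-09) and the brake Usp18 (log2 6.15, SE 0.51, adjusted p = 6.9e-08) rose too. Of the signalling genes, Irf7 rose (log2 3.37, SE 0.63, adjusted p = 0.00034) and Irf9 rose (log2 1.07, SE 0.17, adjusted p = 7.3e-05), while Stat2 did not pass (67.5, 64.1 and 76.6 CPM in p53 libraries, 34.6, 37.7 and 37.2 CPM in WT libraries, log2 0.92, SE 0.45, adjusted p = 0.091). Ifit2 and Oas3 did not pass either. Ifit and Oas genes have close copies, and the treatment of reads that match several copies is not stated.

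The core of the response element, GAAA followed 2 bases later by another GAAA, on either strand, was searched in the same promoters. It stood in 11 of 22 interferon genes with a promoter in the table (50%), in 3.14% of 11482 tested genes and in 2.98% of all promoters. Of 10 genes of MHC class I and the immunoproteasome with a promoter, 1 held it (10%). Shown are the 160 bases before the start of the 3 genes just described, with matches in capitals, on the strand of the gene, where a pair of TTTC is the same motif read from the other strand. Isg15 is at chr4:156200819-156200978 on the minus strand, with 3 matches that overlap each other and begin 78, 72 and 66 bases before the start. Ifit1 is at chr19:34640729-34640888 on the plus strand, with matches at 104 and 85 bases, and Rsad2 is at chr12:26456453-26456612 on the minus strand, with 1 match at 120 bases.
Isg15: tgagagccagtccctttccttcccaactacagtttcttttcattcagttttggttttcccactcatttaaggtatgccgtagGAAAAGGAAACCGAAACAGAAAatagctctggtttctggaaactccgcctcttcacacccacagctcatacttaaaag
Ifit1: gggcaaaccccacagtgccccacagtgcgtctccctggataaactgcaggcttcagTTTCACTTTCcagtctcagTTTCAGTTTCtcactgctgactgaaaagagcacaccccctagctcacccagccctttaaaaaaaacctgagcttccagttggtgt
Rsad2: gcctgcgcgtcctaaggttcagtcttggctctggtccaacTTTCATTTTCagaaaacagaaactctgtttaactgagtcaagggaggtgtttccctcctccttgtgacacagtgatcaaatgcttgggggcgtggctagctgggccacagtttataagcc

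Antigen presentation rose as well. Of 12 genes of MHC class I and the immunoproteasome, 10 were higher and 0 lower, with a median log2 change of 1.84. Psmb8, an immunoproteasome subunit, had 29.9, 34.5 and 34.1 CPM in p53 libraries and 0 reads in WT libraries (log2 9.10, SE 0.23, adjusted p = 3e-14, at least 549-fold higher). The peptide transporter gene Tap1 had 26.4, 25.6 and 27.7 CPM in p53 libraries, against 0.372, 0.172 and 0.18 CPM in WT libraries (log2 6.53, SE 0.20, adjusted p = 3.1e-13). The class I chain H2-K1 had 255, 263 and 264 CPM in p53 libraries, against 61.4, 59.2 and 61 CPM in WT libraries (log2 2.11, SE 0.21, adjusted p = 5e-07), and its partner B2m rose by a log2 of 1.00. Irf1 did not pass (log2 0.05, SE 0.22, adjusted p = 0.88). Among chemokines and cytokines, 8 of 21 were higher and 2 lower. Il6 had 37.2, 45.9 and 42.1 CPM in p53 libraries, against 0.807, 0.345 and 0.421 CPM in WT libraries (log2 6.24, SE 0.22, adjusted p = 3.6e-12), and the monocyte chemokine Ccl2 had 368, 413 and 378 CPM in p53 libraries, against 69.2, 71.6 and 73 CPM in WT libraries (log2 2.44, SE 0.30, adjusted p = 6.7e-06). Cxcl10, a chemokine that interferon induces, rose (log2 5.41, SE 1.13, adjusted p = 0.00084), and Cxcl16 fell (log2 -1.93, SE 0.26, adjusted p = 1.5e-05). Outside this list Casp1, the inflammasome protease, had 0, 0.13 and 0 CPM in p53 libraries, against 52.7, 58.9 and 55.9 CPM in WT libraries (log2 -9.22, SE 2.15, adjusted p = 0.0019, ratio of WT over p53 1290.2 with interval 357 to 10659). Of the 12 leukocyte markers, 4 were at 0 in each group. Of the 4 tested, Lyz2 was higher (0.402, 0.977 and 0.819 CPM in p53 libraries, 0.124, 0 and 0.12 CPM in WT libraries, log2 2.60, SE 0.91, adjusted p = 0.024) and Cd68 lower (3.41, 3.32 and 3.28 CPM in p53 libraries, 15.4, 16 and 17.2 CPM in WT libraries, log2 -2.25, SE 0.77, adjusted p = 0.021). The call of Lyz2 was lost without WT replicate 2 or p53 replicate 2 or 3, and that of Cd68 without WT replicate 3 or p53 replicate 2 or 3. The part of these cells in the changes above was not tested.

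Signalling genes moved in both directions. Of 24 PI3-kinase and AKT genes, 6 were higher and 14 lower, with a median log2 change of -0.49. The regulatory subunit Pik3r1 had 108, 98.3 and 111 CPM in p53 libraries, against 213, 229 and 219.8 CPM in WT libraries (log2 -1.06, SE 0.11, adjusted p = 7.8e-07), and the adaptor Irs2 had 10.1, 8.6 and 12.1 CPM in p53 libraries, against 46.4, 47.3 and 52.6 CPM in WT libraries (log2 -2.25, SE 0.26, adjusted p = 2.6e-06). The kinase Akt1, which acts downstream, rose slightly (log2 0.62, SE 0.13, adjusted p = 0.00086). In the Notch pathway 6 of 14 genes were higher and 2 lower, or 1 lower with median-of-ratios scaling. The receptor Notch3 had 96.4, 77.5 and 97.8 CPM in p53 libraries, against 5.9, 5 and 4.39 CPM in WT libraries (log2 4.14, SE 0.62, adjusted p = 4.4e-05), and Notch1 rose (log2 3.18, SE 0.28, adjusted p = 1.4e-07), as did the targets Hey1 (log2 2.44, SE 0.64, adjusted p = 0.0045) and Heyl (log2 6.76, SE 1.34, adjusted p = 0.00055, at least 109-fold higher), while the target Nrarp fell (log2 -5.13, SE 1.51, adjusted p = 0.0093). In the Hedgehog pathway 4 of 10 were higher and 3 lower. Gli2, its activator, had 13.8, 11.2 and 14 CPM in p53 libraries and 0 reads in WT libraries (log2 7.76, SE 0.30, adjusted p = 7.2e-12, at least 217-fold higher), whereas the receptor and target Ptch1 fell (log2 -1.08, SE 0.28, adjusted p = 0.004) and the target Hhip had 4.89, 3.45 and 3.91 CPM in p53 libraries, against 118, 127 and 126 CPM in WT libraries (log2 -4.92, SE 1.37, adjusted p = 0.0066).

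Of 27 Wnt genes, 10 were higher and 7 lower. The secreted inhibitor Sfrp2 had 145, 138 and 139.8 CPM in p53 libraries, against 0, 0.0575 and 0 CPM in WT libraries (log2 10.87, SE 1.90, adjusted p = 0.00018, ratio of p53 over WT 7069 with interval 1268 to 279261). The secreted antagonists Notum and Dkk3 went the other way: Notum had 0.87, 0.977 and 0.882 CPM in p53 libraries, against 68.3, 67.4 and 71.6 CPM in WT libraries (log2 -6.15, SE 1.16, adjusted p = 0.00036), and Dkk3 had 12.3, 13.3 and 12 CPM in p53 libraries, against 234, 242 and 250.4 CPM in WT libraries (log2 -4.27, SE 0.57, adjusted p = 1.4e-05). Among 27 growth factor and receptor genes of the FGF and EGF families, 9 were higher and 6 lower. Together these were 55.6%, beside 54.2% of all genes. Fgf7, which fibroblasts make for keratinocytes, had 134, 155 and 147 CPM in p53 libraries, against 7.33, 7.65 and 5.65 CPM in WT libraries (log2 4.40, SE 0.86, adjusted p = 0.00048), and the receptor Fgfr4, known in myoblasts, had 107, 102 and 99.4 CPM in p53 libraries, against 0.124, 0.115 and 0.18 CPM in WT libraries (log2 9.02, SE 1.89, adjusted p = 0.00085). In the BMP list 2 of 18 were higher and 5 lower, but without any 1 of the 6 libraries 0 were higher and 3 or 4 lower. In the TGF-beta list 3 of 15 were higher and 4 lower, with 2 lower without any 1 of the libraries. The ligand Bmp4 and its antagonist Grem1 fell (log2 -1.59, SE 0.47, adjusted p = 0.0091 for Bmp4, log2 -1.22, SE 0.24, adjusted p = 0.00059 for Grem1). Of 22 immediate early and ERK feedback genes, 5 were higher and 9 lower, and without WT replicate 3 or p53 replicate 3 the lower ones were 5. Egr1 and Jun rose (log2 1.44, SE 0.23, adjusted p = 8e-05 for Egr1, log2 1.12, SE 0.21, adjusted p = 0.00028 for Jun), and Myc and Fosb fell (log2 -0.50, SE 0.11, adjusted p = 0.00096 for Myc, log2 -1.96, SE 0.36, adjusted p = 0.00026 for Fosb).

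Metabolic lists moved in both directions. Of 24 glycolysis and hypoxia genes, 10 were higher and 2 lower, with a median log2 change of 0.67. With plain sums of reads the counts were 6 higher and 3 lower. Without any 1 of the 6 libraries 7 to 10 were higher and 1 was lower. The lactate exporter Slc16a3 had 252, 252 and 246 CPM in p53 libraries, against 21.9, 19.3 and 20.8 CPM in WT libraries (log2 3.59, SE 0.44, adjusted p = 5.9e-06), and the enolase Eno1 had 889, 923 and 817 CPM in p53 libraries, against 258, 224 and 239.9 CPM in WT libraries (log2 1.86, SE 0.12, adjusted p = 5.5e-09). Of 22 respiratory chain genes, 10 were higher and 1 lower, and the higher ones included the cytochrome c gene Cycs (log2 1.57, SE 0.08, adjusted p = 2.6e-10). Aldehyde and retinoid metabolism leaned the other way, with 3 of 15 higher and 7 lower and a median of -1.29. Aldh2, which clears acetaldehyde, had 137, 136 and 131 CPM in p53 libraries, against 605, 593 and 609 CPM in WT libraries (log2 -2.16, SE 0.12, adjusted p = 7.2e-10). Aldh1a1 and Aldh3a1 fell as well (log2 -4.61, SE 0.84, adjusted p = 0.00026 for Aldh1a1, log2 -2.90, SE 0.74, adjusted p = 0.0037 for Aldh3a1), as did the retinoic acid binder Crabp2 (2.68, 2.54 and 2.27 CPM in p53 libraries, 90.8, 111 and 101 CPM in WT libraries, log2 -5.30, SE 1.36, adjusted p = 0.0038). Of 18 NRF2 targets 5 were higher and 4 lower, together 50% beside 54.2% of all genes. Of 21 cholesterol genes 0 were higher and 1 lower, with a median of -0.44. All p53 libraries lay below all WT libraries for 15 of them and above for 2, beside 39% and 42.8% of all genes. From the 6 libraries alone, 2 were higher and 15 lower. Of 24 ribosomal protein genes 3 were higher and 2 lower, with a median of -0.02. Of 15 unfolded protein response genes 1 was higher and 1 lower, with a median of 0.45. All p53 libraries lay above all WT libraries for 12 of these 15 genes and below for 2, beside 42.8% and 39% of all genes. The list summed to 5719.9 to 6169 CPM in p53 libraries and 4392 to 4564 CPM in WT libraries.

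By size of change, the 15 higher genes with the largest log2 change included Cdh15, Igfbp5, Myod1, H19, Des, Myog, Grb10 and Sfrp2, given above, and the Y-linked Eif2s3y. The others were Pdpn, Tmem47, Srpx2, Lrrc17, Asb5 and Armcx2. Pdpn, which encodes the membrane mucin podoplanin of lymphatic and stromal cells, had 393, 435 and 392 CPM in p53 libraries, against 0.186, 0.0575 and 0.0601 CPM in WT libraries (log2 11.40, SE 0.32, adjusted p = 1.1e-13). Srpx2, a secreted protein, had 289, 291 and 269 CPM in p53 libraries, against 0.124, 0.0575 and 0.0601 CPM in WT libraries (log2 11.01, SE 1.08, adjusted p = 4.7e-07). Of the 15 lower genes with the largest change, the first was Slc5a7, the choline transporter of cholinergic neurons. It had 0 reads in p53 libraries, against 349, 408 and 373 CPM in WT libraries (log2 -12.50, SE 0.40, adjusted p = 7.6e-13, at least 5806-fold lower). Wfdc2, a secreted protease inhibitor of glandular epithelia, had 0, 0.326 and 0.063 CPM in p53 libraries, against 538, 546 and 530.4 CPM in WT libraries (log2 -11.82, SE 2.79, adjusted p = 0.0021). The list also held Krt18, Casp1, Hoxc5, Pax2, Perp, Krt8, Hoxc4 and Sox2, given above, and Hoxc6, Gpr149, Padi4 and Rapgef5. By difference in CPM, which favours long and abundant transcripts, the higher genes also included Lgals1, a lectin (4599, 5203 and 4394 CPM in p53 libraries, 1631, 1567 and 1549 CPM in WT libraries, log2 1.58, SE 0.39, adjusted p = 0.0031), the glycolytic genes Pkm and Ldha (log2 0.91, SE 0.26, adjusted p = 0.0078 for Pkm, log2 1.36, SE 0.18, adjusted p = 1.1e-05 for Ldha), and Spp1, the secreted phosphoprotein osteopontin (log2 0.56, SE 0.14, adjusted p = 0.0034). The collagens Col3a1 and Col5a2 were also among them, and Col5a2 had 1748, 1705 and 1760.3 CPM in p53 libraries, against 61.1, 69.6 and 68.8 CPM in WT libraries (log2 4.71, SE 0.73, adjusted p = 5.5e-05). The proteoglycan Bgn, also among them (log2 2.91, SE 1.15, adjusted p = 0.042), lost its call without any 1 of the 6 libraries, with an adjusted p of 0.08 to 0.088. The lower ones included Thbs1, a matrix protein that activates TGF-beta (1104, 1029 and 1155 CPM in p53 libraries, 5505, 5950.4 and 5694 CPM in WT libraries, log2 -2.38, SE 0.32, adjusted p = 1.4e-05), Gpnmb, a membrane glycoprotein (log2 -2.98, SE 0.33, adjusted p = 2e-06), and the water channel Aqp5 of gland cells (48.4, 50.6 and 38.3 CPM in p53 libraries, 1166, 1087 and 1138 CPM in WT libraries, log2 -4.63, SE 0.69, adjusted p = 3.9e-05), and also Cp, Fth1, Eef2 and Nedd4. Cp and Fth1 handle iron, as ceruloplasmin and ferritin heavy chain (log2 -2.91, SE 0.53, adjusted p = 0.00026 for Cp, log2 -0.95, SE 0.12, adjusted p = 9.2e-06 for Fth1).

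**Figure D4:**
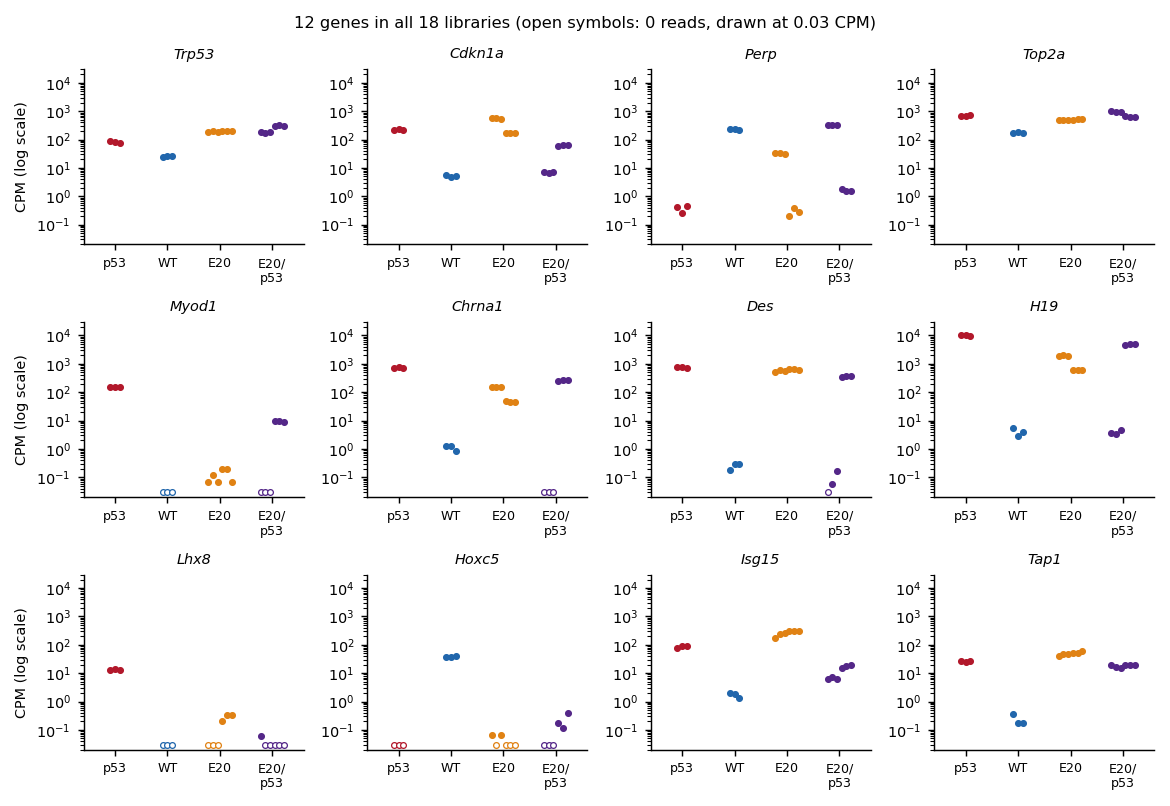
Levels of 12 genes in all 18 libraries by group, in CPM on a log axis, with each group's libraries in order of replicate number and open symbols for 0 reads. Myod1 lies at 149 to 157 CPM in p53 and at most at 9.95 CPM in the other groups, whereas Des and Chrna1 lie above WT in E20 too. Lhx8 is at 0 in WT, and in E20 and E20/p53 several genes stand at separate levels in replicates 1 to 3 and 4 to 6.

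Sex chromosome genes separated the groups, although the labels give no sex. The Y-linked genes Ddx3y, Kdm5d, Uty and Eif2s3y were read in each p53 library and had 0 reads in WT libraries. Ddx3y had 68.6, 68.7 and 99.2 CPM in p53 libraries (log2 10.34, SE 0.29, adjusted p = 1.3e-13, at least 1322-fold higher). Xist, the RNA that silences the second X chromosome of females, had 0.134, 0.13 and 0.252 CPM in p53 libraries, against 0.621, 0.69 and 0.722 CPM in WT libraries, and so was low in both groups, lower in p53 (log2 -1.67, SE 0.34, adjusted p = 0.00069). Among E20 libraries it ran between 815 and 1349.6 CPM. The WT libraries held neither Y-linked reads nor a high Xist level.

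Changes were not even over the chromosomes. Of the genes tested, 98.2% had 1 position in GENCODE M21. On chromosome 16, 48.4% of 457 genes were higher and 12.7% lower, with a median log2 change of 0.54. Medians on the other autosomes ran between -0.16 and 0.30, and on X the median was 0.24. To see in which group chromosome 16 stood apart, each library's level of 9715 genes with at least 5 CPM in each of 6 blocks of 3 libraries was set against the gene's median over the blocks. p53 and WT are 1 block each, and E20 and E20/p53 are 2 each. Over 294 genes of chromosome 16, the median was 0.01, 0.02 and 0.00 in p53 libraries, against -0.40, -0.38 and -0.40 in WT libraries, and it was between -0.10 and 0.22 in the other blocks. On the other autosomes it lay between -0.09 and 0.10 in p53 libraries and between -0.15 and 0.16 in WT libraries, and the block values of E20 and E20/p53 lay between -0.45 and 0.43. In order of position, the median of the first 74 genes, which start at 3744093 to 17405986 in mm10, was -0.04 in p53 and -0.01 in WT. The next 74 were at 0.04 in p53 and -0.23 in WT. The following 73 genes, from 32277459 to 57156665, were at 0.01 in p53 and -0.68 in WT, and the last 73, from 57168862 to 97943357, at 0.06 in p53 and -0.60 in WT. The low level in WT was deepest in the last 2 of these 4 stretches and absent from the first. The chromosome was singled out after its values were seen, and the cause was not tested.

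**Figure D5:**
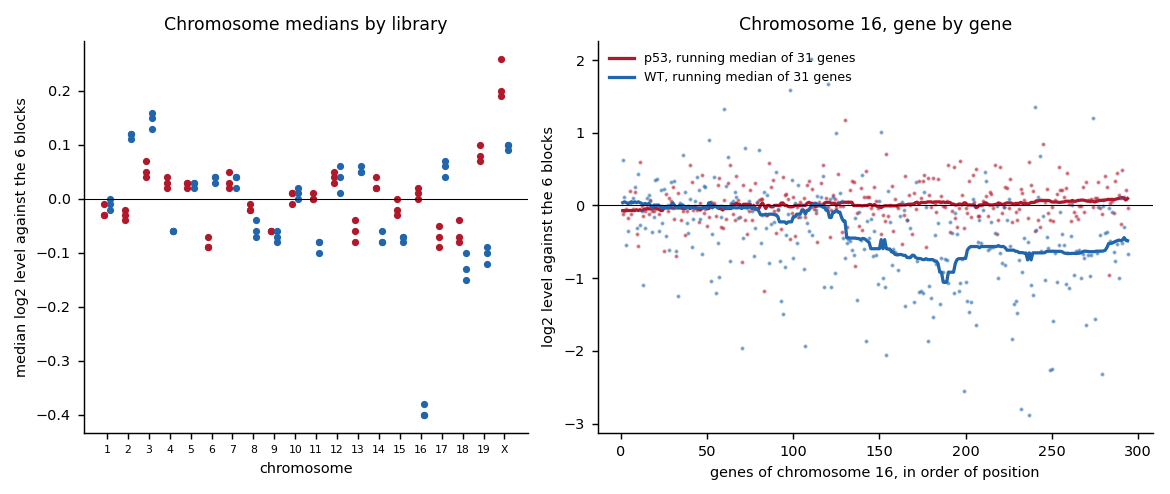
Left, with p53 in red and WT in blue, the median log2 level of each chromosome's genes in each p53 and WT library, against the gene's median over the 6 blocks; chromosome 16 lies at -0.40 to -0.38 in WT libraries and at 0.00 to 0.02 in p53 libraries. Right, the genes of chromosome 16 in order of position, with running medians that part near the middle.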

How the data were processed

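Messenger RNA of 18 mouse libraries was prepared with a TruSeq Stranded mRNA LT kit, per the labels' protocols. The submitters' processing notes name bcl2fastq 1.8.4, Trimmomatic, featureCounts and the build mm10, while aligner, annotation, strand setting and scaling method are not named by the sources read here. The deposited table holds log2 values for 26143 genes. From the values themselves, each is log2 of the reads with 1 added, divided by a scaled total of that library, and 100% returned whole reads within 0.001 reads. CPM was computed from these reads and totals. Genes needed 0.635 CPM in at least 3 of the 18 libraries and 15 reads in sum, which left 15235.

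Differences were tested with limma 3.58.1 in R 4.3.3, with a mean-variance trend, on the deposited log2 values of all 18 libraries, with 1 mean per group, no covariate and Benjamini-Hochberg adjustment over all genes tested. Each adjusted p in the text comes from this fit unless another is named, and a log2 change understates that of genes with few reads. The fit was tested on simulated data with 1 fixed dispersion for all genes. Among genes with at least 50 mean reads, the variance between libraries was set over counting error. The median of this ratio was 2.784 times the median that counting alone gives in p53 and 1.871 times in WT. Its mean was 54.453 in p53 and 2.643 in WT. Alternatives were other scalings, filters and added values, voom, other sets of libraries, a replicate block, block means and leaving out each library.

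The members and the 53 gene lists were chosen with earlier results of these data known. Named genes were taken from a written rule: Trp53 and Pik3ca, members of the 3 lists on p53 and the first gap phase, members of short lists, the called members of each list with the smallest p or the largest change, and the genes with the largest log2 change (15 each way) or CPM difference (10 each way). Outside the rule, Akt1, Ckm, Ifit1, Ifit2, Igfbp3, Irf7, Irf9, Mki67, Musk, Myh3, Oas3, Rn45s, Rn7sk, Stat2 and Ttn were named after their values were seen. Some genes that the rule selects are not reported here. Lists are described by counts and medians, with no set test.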

Additional observations from a re-analysis of the deposited data

Results flagged for a closer look

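Lhx8 had 0.0617 CPM in E20/p53 replicate 1, and the other E20/p53 libraries had 0 reads. The gap to the nearest library spans the whole range of this group of 6, above the limit of Dixon's test. For normally distributed values chance marks about 1 in 20 such groups, and 30 pairs of a gene and a group were looked at. The level here is that of 1 read. Beside 0 reads in the other libraries any single read passes this limit, so the test cannot decide.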

How the results depend on the processing

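The fits gave 6422 genes higher and 5880 lower from the p53 and WT libraries alone, 6497 and 5931 by voom with weights on the same 18 libraries, and 1 and 0 from block means. At a change of at least 2-fold they were 2361 and 2078. Median-of-ratios scaling gave 4316 higher and 3935 lower, plain sums of reads 3821 and 4478, no filter 4694 and 4137, a filter of 1 CPM 4231 and 3600, and log2 of CPM plus 1 4419 and 3932. Leaving out each library gave 3816 to 3956 higher and 3098 to 3279 lower. Of 224 genes named, 187 were called, 0 with limma on block means and 180 to 183 without 1 library. The signs of a few log2 changes, none of them called from all libraries, depended on the setting. With plain sums of reads they were -0.05 for Atm, -0.10 for Irf1, -0.12 for Plxnb2, -0.06 for Polk and -0.10 for Tnfrsf10b, and with median-of-ratios scaling -0.01 for Plxnb2. With 1 library left out, the changes ran between -0.96 and 0.08 for Krt5 and between -0.22, without p53 replicate 3, and 2.37 for Rn45s, and they ran between -0.01 and 0.06 for Plxnb2, and turned to 0.02 and 0.03 for Rchy1. The cause was not tested. The replicate numbers did not pair the libraries: deviations of p53 and WT libraries with the same number correlated at 0.0629, -0.0269 and 0.0171, and a fit with the number as a block gave 6378 genes higher and 5806 lower. The depth leaves genes under 0.0598 CPM over the WT group, or 0.065 CPM over the p53 group, below 3 reads, where a fold is a bound. The 3 libraries of a group resemble each other closely, and 3 against 3 cannot show how far other animals would vary.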

Other observations

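The other tongue groups give levels beside which the p53 libraries can be read. They carry the Pik3ca allele, and no test was made. Hoxc5 had 0 reads in p53 libraries, at most 0.395 CPM in the E20 and E20/p53 libraries, and 35.8 to 39 CPM in WT libraries. It was thus high in the WT esophagus and low in the 3 tongue groups. Trp53 had 74.8 to 87.7 CPM in p53 libraries, 180.2 to 208 CPM in E20, 168 to 314 CPM in E20/p53 and 24.9 to 26.7 CPM in WT libraries.

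Lhx8, Myod1 and Perp did not follow the tissue label. Lhx8 had 13 to 14.6 CPM in p53 libraries, at most 0.343 CPM in E20, at most 0.0617 CPM in E20/p53 and 0 reads in WT libraries. Myod1 had 149 to 157 CPM in p53 libraries, at most 0.203 CPM in E20, 0 reads in E20/p53 replicates 1 to 3 and 8.56 to 9.95 CPM in E20/p53 replicates 4 to 6. Myog was low there too, with at most 0.467 CPM in E20 and 9.81 CPM in E20/p53. Other muscle genes were not. Des had 533 to 662 CPM in E20, at most 0.169 CPM in E20/p53 replicates 1 to 3 and 353 to 385 CPM in replicates 4 to 6. Chrna1 had 44.2 to 154 CPM in E20, 0 reads in E20/p53 replicates 1 to 3 and 256 to 264 CPM in replicates 4 to 6. Perp had 0.261 to 0.441 CPM in p53 libraries, 30.8 to 33.9 CPM in E20 replicates 1 to 3, 320.1 to 339 CPM in E20/p53 replicates 1 to 3, and 218 to 232 CPM in WT libraries. In E20 replicates 4 to 6 it had at most 0.4 CPM, and in E20/p53 replicates 4 to 6 at most 1.85 CPM. Isg15 was higher in every tongue library than in the WT libraries, at levels that differed between the tongue groups. It had 78.9 to 93 CPM in p53 libraries, 174 to 319.7 CPM in E20 and 6.11 to 19.7 CPM in E20/p53, against 1.32 to 2.05 CPM in WT libraries.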
